A study of Mus musculus with 13 samples.

Results

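The comparison described here sets forebrain (FB) cells of allele 542 against wild-type (wt) FB cells of mouse embryos at E12.5, assayed by ATAC-seq, which reads accessible DNA from the cuts of a transposase. A region was called wt-only when it was among the 50000 strongest regions of both wt FB libraries and of neither 542 FB library, and 542-only in the reverse case. Of 63058 consensus regions of the 4 FB libraries on chromosomes 1 to 19, 1917 were wt-only and 1805 were 542-only, 3722 members in all. All 12 libraries of the series that were compared held 111427 consensus regions. The members were chosen by presence in these same libraries, so their own values are a description and carry no test. The rule itself takes 3.04% of consensus regions as wt-only and 2.86% as 542-only.

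Embryos of allele 542 were homozygous for a single-copy insertion of the II1 element, which is active in distal limb cells and comes from the domain centromeric to the HoxD cluster (C-DOM), joined to an HBB promoter and a LacZ reporter, in the domain telomeric to the cluster (T-DOM). Wt and 542 animals alike were kept on a mixed background, crossed back to hybrids of C57BL6 and CBA mice, and the 542 embryos stem from a single founder line. Each FB group had 2 replicates, each a pool of embryos, with 50000 cells per library. The distal forelimb (DFL) and proximal forelimb (PFL) of both genotypes, also with 2 replicates each, were used as libraries outside the rule. Reads of wt were mapped to the mm10 genome and reads of 542 to a mutant genome that carries the insertion. Founder line, genotype and mapping genome therefore change together, and their parts in a difference cannot be told apart. The study describes a mutant chromosome 2 built from the wt sequence, and names no change on other chromosomes.

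The HoxD cluster lies between regulatory domains that act in different tissues, C-DOM in digits and genitals and T-DOM in the proximal limb and trunk. Open chromatin marks promoters, which are shared between most cell types, and enhancers, which are mostly particular to a tissue. In the embryonic forebrain, enhancers of this kind lie around genes for the transcription factors that pattern the pallium and subpallium, and around genes for axon guidance and synapses.

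As estimated from the files, the FB libraries held 70.7 and 56.6 M tags in wt and 64.5 and 51.4 M in 542. The limb libraries held 44 to 54.5 M in wt and 37.5 to 41.4 M in 542. In limb each wt library was thus deeper than each of 542, and in FB wt was deeper at each replicate number. What depth adds to a difference between genotypes was not tested. The FB lists held the regions of their tissue. In bulk tissue, fewer cells of a type and less accessible chromatin per cell cannot be told apart. Regions whose nearest coding gene was 1 of 12 telencephalic marker genes numbered 84 to 85 in wt FB and 86 to 92 in 542 FB, against 39 to 48 in limb lists. For 12 limb mesenchyme genes the numbers were 25 to 28 in FB and 69 to 71 in limb, and Hoxa13, Hoxd13 and Tbx5 had no region in any FB list. Markers of endothelium gave 30 to 33 regions in wt FB and 31 in both 542 FB libraries, and those of blood and microglia gave 31 in wt FB and 33 in 542 FB. The epidermis list gave 16 to 17 and 16 to 18 regions, and that of neural crest and head mesenchyme 29 to 30 and 28 to 30. The number of neural progenitor and neuron regions was 84 to 85 in wt FB and 87 to 89 in 542 FB. The defining genes Dcx, Sox3 and Gata1 lie on the X chromosome, outside the lists used, and Tie1, Krt5 and Krt14 had no region in any FB list.

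Sequences are shown for the integration site, because it is the only place where the alleles are known to differ by design, and for the strongest pair of members of each direction that the limb libraries also held in all libraries of that genotype and none of the other. All are of the plus strand of GRCm38, which mm10 equals on these chromosomes. At the integration site, chr2:75269457-75269756, capitals mark the target of the guide used for the insertion, a 20-base match on the minus strand at chr2:75269597-75269616. In the member sequences, 300 bases centred on the summit, capitals mark matches on either strand of the motifs searched. These were the homeodomain core TAATTA, the E-box CAGCTG, its variant CAGATG, the SOX-type element ACAAAG, the octamer ATGCAAAT, the GC box GGGCGG, the AP-1 element TGACTCA, the cAMP response element TGACGTCA and, by name alone, a CTCF core and an NFI palindrome. The GC box was found in each of the 4, CAGCTG near Dmrta1 and ACAAAG near Gm16464, and 23.1%, 23.9% and 26.1% of all FB consensus regions held these 3 in the same length.
Integration site: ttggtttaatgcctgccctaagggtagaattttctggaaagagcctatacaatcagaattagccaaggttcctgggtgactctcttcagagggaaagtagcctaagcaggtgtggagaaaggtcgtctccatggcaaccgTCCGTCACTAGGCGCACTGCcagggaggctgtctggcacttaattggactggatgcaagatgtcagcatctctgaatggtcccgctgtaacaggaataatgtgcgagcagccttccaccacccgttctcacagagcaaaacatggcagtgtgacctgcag
2410018L13Rik, wt-only, chr12:23010179-23010478: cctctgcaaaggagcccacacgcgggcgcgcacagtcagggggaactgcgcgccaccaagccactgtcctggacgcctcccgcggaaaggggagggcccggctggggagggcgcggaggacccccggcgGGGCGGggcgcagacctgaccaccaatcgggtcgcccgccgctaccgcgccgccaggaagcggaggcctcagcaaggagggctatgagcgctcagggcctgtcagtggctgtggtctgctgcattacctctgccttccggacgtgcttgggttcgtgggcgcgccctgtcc
D130017N08Rik, wt-only, chr5:143758110-143758409: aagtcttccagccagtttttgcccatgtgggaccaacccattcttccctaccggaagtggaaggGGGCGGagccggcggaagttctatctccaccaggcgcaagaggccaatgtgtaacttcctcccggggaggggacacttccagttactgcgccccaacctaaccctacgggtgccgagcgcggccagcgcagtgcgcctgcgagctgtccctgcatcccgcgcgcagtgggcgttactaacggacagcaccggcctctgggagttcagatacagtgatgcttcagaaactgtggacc
Dmrta1, 542-only, chr4:89875701-89876000: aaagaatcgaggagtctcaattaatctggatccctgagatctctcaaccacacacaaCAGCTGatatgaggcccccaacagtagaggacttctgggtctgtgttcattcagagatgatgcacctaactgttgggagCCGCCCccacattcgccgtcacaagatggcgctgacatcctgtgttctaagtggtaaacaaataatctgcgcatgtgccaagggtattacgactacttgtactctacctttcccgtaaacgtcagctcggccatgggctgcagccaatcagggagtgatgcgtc
Gm16464, 542-only, chr7:104502114-104502413: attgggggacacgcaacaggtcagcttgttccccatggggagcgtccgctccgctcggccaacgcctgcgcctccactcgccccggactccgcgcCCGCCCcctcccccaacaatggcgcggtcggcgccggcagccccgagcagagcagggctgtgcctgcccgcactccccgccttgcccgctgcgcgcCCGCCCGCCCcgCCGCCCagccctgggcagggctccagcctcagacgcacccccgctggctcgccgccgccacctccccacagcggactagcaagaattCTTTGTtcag

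The integration site was itself a region of open chromatin in wt forebrain, and it was among the wt-only regions. It lies in an intron of 2600014E21Rik, a transcript of T-DOM. In wt FB replicate 1 the region ran from 75269412 to 75269884 on chromosome 2, with a fold over the local background of 8.17 and 69 tags at the summit. In wt FB replicate 2 it ran from 75269297 to 75269842, with a fold of 6.24 and 43 tags. The summits lay 34 bp to the right and 3 bp to the left of the start of the guide target, so the insertion lies within this region. In 542, regions were called within the 4218 bp of inserted sequence instead, at a fold of 5.46 in replicate 1 and of 4.58 and 2.4 in replicate 2, and none over the interrupted sequence. The sequence under the wt summits is not contiguous in 542, so the site cannot be compared like an intact region. Regions of 542 that touch the insertion were set aside from the lists, among them those with folds of 5.46 and 4.58, at ranks 36814 and 44975. They could not count against the wt-only label of the site, which is therefore no finding about 542.

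The landscape around the site held members of both directions. Within 1 Mb of it there were 53 consensus regions, of which 3 were wt-only (5.66%) and 1 was 542-only (1.89%). Within 5 Mb, 18 of 283 were wt-only (6.36%) and 8 were 542-only (2.83%), and within 20 Mb, 48 of 1087 (4.42%) and 23 (2.12%). Each of these wt-only counts includes the region at the site itself. Over all consensus regions the shares were 3.04% and 2.86%. In the window of 1 Mb on each side of Hoxd13, the gene for a transcription factor of digits and genitals, 30 of 49 regions were in all 4 lists (61.2%), against 60.3% of all consensus regions. The other members near the site were weak. The wt-only region near Gm13652 (chromosome 2, 75065332 to 75065840) had folds of 5.25 and 4.96 in wt FB and 2.79 in 542 FB replicate 1, with no region in 542 FB replicate 2. The wt-only region near Gm13655 (75588621 to 75588935) had folds of 6.07 and 5.44 in wt FB, and of 3.93 and 4.15 in 542 FB at ranks beyond 50000. The 542-only region near Gm13660 (75484972 to 75485408) had folds of 5.19 and 5.85 in 542 FB and 3.74 in wt FB replicate 1. None of these 3 was in all limb lists of its genotype.

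**Figure D1:**
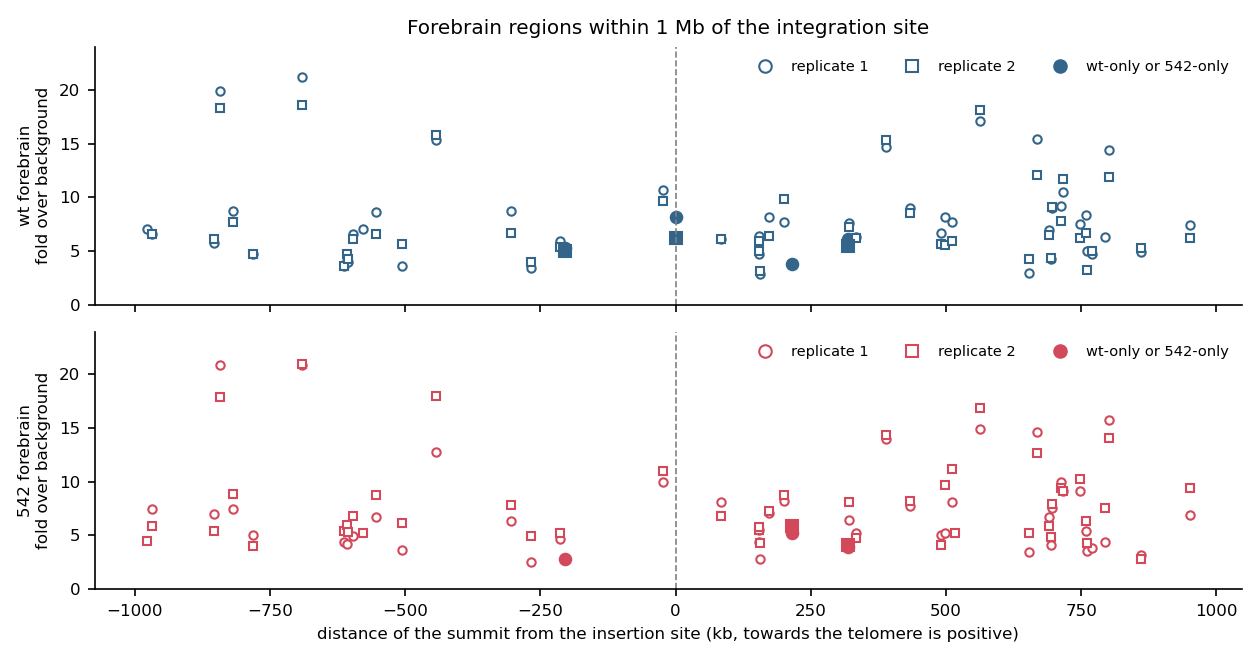
Fold over local background (vertical axis) of the 53 forebrain consensus regions within 1 Mb of the integration site, against the distance of the summit from the site in kb, for wt (top) and 542 (bottom); circles are replicate 1, squares replicate 2, and filled symbols are wt-only or 542-only regions. Regions of 542 that touch the insertion were set aside and are not drawn, so the wt region at distance 0, with folds of 8.17 and 6.24, stands alone.

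Among regions that all 4 FB lists held, none near the insertion passed the test. These 37998 shared regions were tested by limma on log2 fold, centred on the median of each library, with Benjamini-Hochberg adjustment. Within 1 Mb of the site 31 were tested, with log2 differences (542 minus wt) of -0.31 to 0.54 and a smallest adjusted p of 0.387 (limma). Within 5 Mb 0 of 160 and within 20 Mb 0 of 632 passed by limma, where 15 (9.38%) and 68 (10.8%) had an unadjusted p under 0.05, against 9.29% of all regions tested. Over all shared regions 12 (0.0316%) passed, so 0 in sets of this size does not set them apart.

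Most members lay near the end of the lists, where the rule decides on small differences in rank. The mean fold over the 2 libraries that held them had a median of 5.7 in wt-only regions (range 2.17 to 26.2) and 5.52 in 542-only regions (1.94 to 17.2), against 9.14 in regions of all 4 lists. In 1508 wt-only (78.7%) and 1389 542-only regions (77%) the weaker rank was beyond 40000. A region at rank 50000 had a fold of 4.17 and 4.82 in wt FB and 4.51 and 4.73 in 542 FB, and the first region left out of the list had 4.43, 4.82, 4.51 and 4.73. Mean folds of 10 or more were found in 9 wt-only and 7 542-only regions.

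The other genotype usually had the region too, at a lower rank. Both libraries of the other genotype had called a region over 1412 wt-only (73.7%) and 1360 542-only regions (75.3%). In those, the median log2 ratio of mean folds, own genotype over other, was 0.58 and 0.53. No region of any rank was called in either library of the other genotype at 121 wt-only (6.31%) and 152 542-only regions (8.42%). With each of the 4 FB libraries left out in turn, so that 1 genotype was represented by a single list, wt-only counts were 3591 to 4945 and 542-only counts 3124 to 4725.

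**Figure D2:**
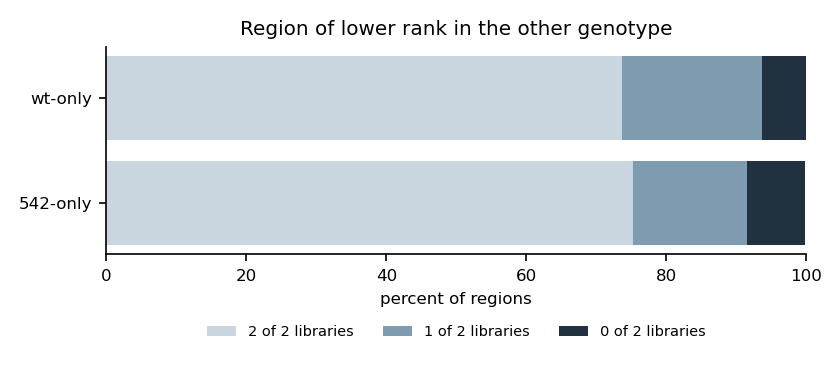
Percent of the 1917 wt-only and 1805 542-only forebrain regions (horizontal axis) for which 2, 1 or 0 of the 2 libraries of the other genotype had called a region at a rank beyond 50000. In both directions about the same share had a lower-ranked region in both libraries, 73.7% and 75.3%.

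The strongest wt-only region overlapped the start of 9430037G07Rik (chromosome 9, 88599221 to 88599957). Its fold was 27.3 and 25.1 in wt FB (26.2 ± 1.59, SD, n = 2), and no region was called in 542 FB. The limb libraries also had a region there, at 21.1 to 23.2 in the 4 wt libraries and 3.37 to 6.27 in the 4 of 542. On chromosome 12, the region at the start of 2410018L13Rik (23009573 to 23010764) had folds of 13.7 and 16.9 in wt FB and none in 542 FB, and 15.8 to 19.3 in wt limb with no region in 542 limb. Further wt-only regions of that chromosome behaved alike, near Mrto4-ps2 (21784029 to 21785004, 11.7 ± 1.07 in wt FB, SD, n = 2) and at the start of Gm48042 (22905897 to 22906712, 11.6 ± 0.499), with no region of any rank in the 6 libraries of 542. From 21 to 25 Mb of chromosome 12, a stretch chosen after its values were seen, 6 of 47 consensus regions were wt-only (12.8%), 5 of these had no region of any rank in 542 FB, 0 were 542-only and 23 were in all 4 lists.

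Most other wt-only regions of high fold had a region of lower rank in at least 1 of the 542 FB libraries. The region at the start of D130017N08Rik (chromosome 5, 143757849 to 143758508) had folds of 12.7 and 11.1 in wt FB against 3.17 and 4.15 in 542 FB. In an intron of Sema3a, the gene for a secreted repellent of growing axons (chromosome 5, 13379239 to 13379614), folds were 10.2 and 9.79 in wt FB and 3.67 and 4.46 in 542 FB, and no limb library had a region there. Near Gm12005 (chromosome 11, 14059148 to 14059777) they were 12.2 and 12.7 in wt FB and 4.43 in 542 FB replicate 1, with none in replicate 2. In each of these 3 regions the lower wt value was more than 2 times the higher 542 value. The region near Gm23065, in an intron of Vwc2, had 10.6 and 10.8 in wt FB and 2.91 in 542 FB replicate 1, and that near Gm43907 in the Klrb1 cluster of lectin-like receptors had 9.34 and 10.8 with no region in 542 FB and 5.71 in 542 DFL replicate 1. The wt values at the start of Gm13162 were far apart, 7.71 and 13.6, with 3.29 and 4 in 542 FB, and all 8 limb lists held it.

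Among 542-only regions the strongest was an intergenic one 5963 bp from the 5S rRNA gene n-R5s43 (chromosome 15, 100443288 to 100444047). Its fold was 17.2 and 17.1 in 542 FB (17.2 ± 0.032, SD, n = 2) with no region called in wt FB. The wt limb libraries did hold it, with mean folds of 8.93 in DFL and 9.84 in PFL, against 15 and 14.3 in 542 limb. The region near Gm45734 (chromosome 8, 72032476 to 72033421) had 14.6 and 13.2 in 542 FB, no region in wt FB, and in limb only lower-ranked regions of 3.97 to 4.36, all of 542. The region 187653 bp from the start of Dmrta1, which encodes a DM-domain transcription factor (chromosome 4, 89875377 to 89876481), had 12 and 14.6 in 542 FB against 3.15 and 3.4 in wt FB. At the start of Gm16464, in the Trim30 cluster of tripartite-motif genes (chromosome 7, 104501378 to 104502511), folds were 10.4 and 10.2 in 542 FB and 3.74 and 4.82 in wt FB.

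Another 542-only region of high fold lay 29689 bp from Vmn2r89, a vomeronasal receptor gene (chromosome 14, 51481037 to 51482682), with 9.8 and 9.81 in 542 FB and none in wt FB. Near the start of Tdrd9, whose product silences transposons in the germ line, folds were 9.5 and 11.9 in 542 FB and 4.55 and 3.83 in wt FB. The region near Nudt7, the gene for a coenzyme A diphosphatase of peroxisomes, had 12.6 and 14.4 in 542 FB and 3.15 in wt FB replicate 1. Folds near Gm4786 were 10.7 and 10.1 in 542 FB and 4.44 and 4.54 in wt FB, those near Gm48437, in an intron of Fhit, were 11.3 and 8.62 against 4.32 and 4.68, and those near Gm25522 were 9.88 and 9.69 against 4.44 and 4.4. The genotypes did not overlap in any of these, as the rule favours, and the share over all regions was not counted. Regions of 542 FB with no region of any rank in wt FB also lay at the start of H2-Q7, a class I gene of the major histocompatibility complex, with 8.1 and 8.31, and near the adult globin gene Hbb-bt, with 9.37 and 6.92. Wt limb libraries did hold regions there, all 4 at H2-Q7 with folds of 4.83 to 6.65 and wt PFL replicate 1 near Hbb-bt with 3.38. Only reads of high mapping quality were kept, and several of these places belong to families of near-identical genes, where values are uncertain.

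**Figure D3:**
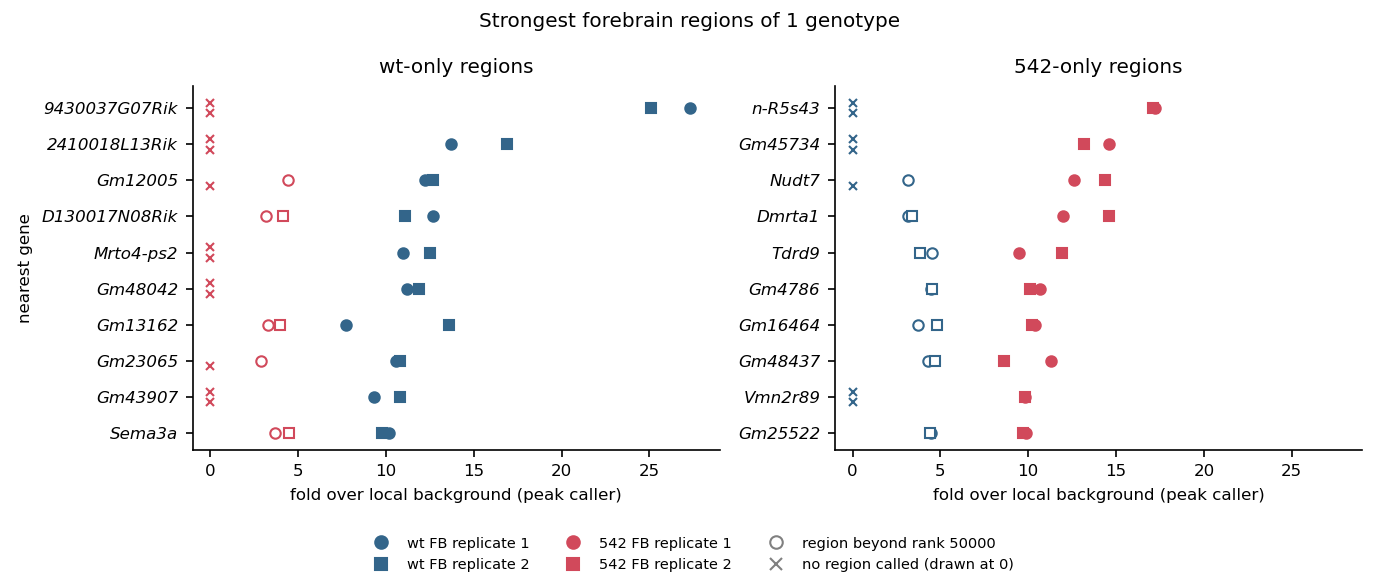
Fold over local background (horizontal axis) in each of the 4 forebrain libraries for the 10 wt-only (left) and 10 542-only (right) regions of highest mean fold, named by nearest gene; filled symbols are in the list of 50000, open symbols are regions of lower rank, and crosses at 0 mark libraries with no region called. The genotype without the region in its lists lies between 2.91 and 4.82 where it had a region at all.

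The limb libraries, which the rule did not use, gave a further reading of the members. They have the founder line and mapping genomes of the FB libraries, so a shared pattern carries the same limit. The wt limb libraries were also all deeper than those of 542. Of the wt-only regions, 16 (0.835%) were in all 4 wt limb lists and none of the 4 of 542, against 0.151% of all FB consensus regions. Of the 542-only regions, 17 (0.942%) were in all 4 limb lists of 542 and none of wt, against 0.0777%. The reverse pattern was found for 1 wt-only and 3 542-only regions, shares of 0.0522% and 0.166%. In single libraries, 20.2 to 22.3% of wt-only regions were in a wt limb list and 17.1 to 19.1% in one of 542, and of 542-only regions 16.2 to 18.1% and 18.5 to 24.9%. Over all FB consensus regions the share was 44.2 to 47%. None of the limb lists held as large a share of the members as of all FB regions, and 1177 wt-only (61.4%) and 1053 542-only regions (58.3%) were in none, against 39.8% of all.

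**Figure D4:**
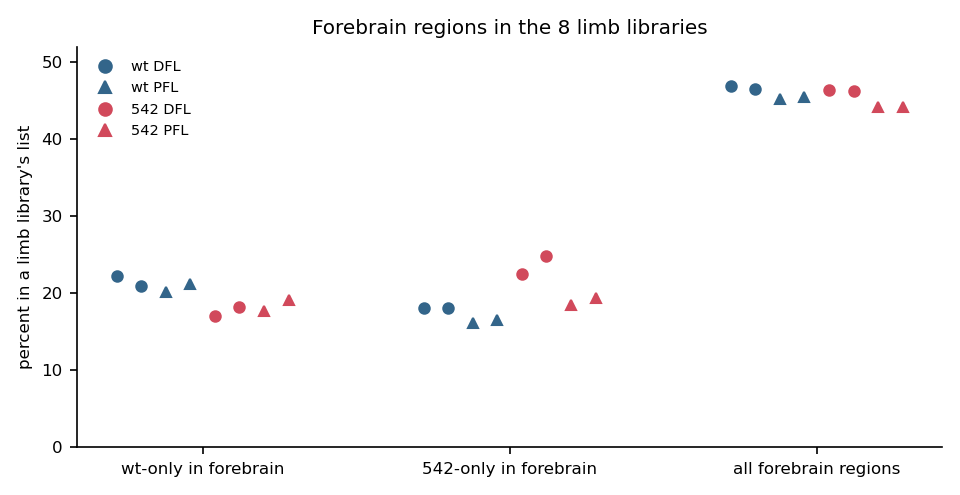
Percent of the wt-only, 542-only and all forebrain consensus regions (groups on the horizontal axis) that were in the list of 50000 of each of the 8 limb libraries; circles are DFL, triangles PFL, blue is wt and red is 542. Wt-only regions lie at 20.2 to 22.3% in wt limb and 17.1 to 19.1% in 542 limb, and all regions at 44.2 to 47%.

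The regions with the same pattern in limb were few, and some of them are described here. The limb libraries of the other genotype had no region of any rank at 6 of the wt-only and 6 of the 542-only ones. At the rest, at least 1 of those libraries had a lower-ranked region. Of the 16 wt-only ones, 8 were within 1 kb of a transcription start site (TSS), against 26.9% of all consensus regions, and 0 were more than 50% soft-masked, that is, annotated as repeats or simple sequence. Of the 17 542-only ones, 3 were within 1 kb of a TSS and 6 were more than 50% soft-masked, near Dmrta1, Gm47450, Gm20110, Bmf, Gm6286 and Gm25115. Among all consensus regions 1.27% were more than 50% soft-masked. Near Gm20110 (chromosome 10, 99599304 to 99600382) folds were 7.52 and 8.14 in 542 FB and 6.29 to 7.92 in 542 limb, with no region in any of the 6 wt libraries. The region near Bmf, a pro-apoptotic gene (chromosome 2, 118554625 to 118555067), had 7.01 and 5.92 in 542 FB and 6.97 to 7.08 in 542 limb, with none in wt. Near Gm6286 (chromosome 1, 166940009 to 166940540) they were 5.57 and 6.31 in FB and 5.99 to 8.48 in limb, again with none in wt. Of the wt-only ones, that in the coding sequence of C1qtnf2 had 6.02 and 6.72 in wt FB and 5.99 to 6.67 in wt limb. In 542 it had 4.18 and 4.46 in FB and 3.97 to 4.71 in limb. The region at the start of Crhr2, a receptor for stress peptides, had 6.61 and 6.84 in wt FB and 4.56 and 4.19 in 542 FB. Its limb folds were 5.25 to 7.81 in wt and 3.99 to 4.45 in 542, the latter at lower ranks.

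Members that all 8 limb lists held could be tested in limb by limma with tissue as covariate. The test was passed by 49 (0.188%) of 26039 limb regions with lower and 39 (0.15%) with higher fold in 542. Of 131 limb regions that overlapped wt-only members, 1 (0.763%) was lower in 542 and 0 were higher. Of 129 that overlapped 542-only members, 1 (0.775%) was higher and 0 were lower. Their median log2 differences were -0.02 and 0.01, against 0.02 over all. The region that passed among the first was an intergenic one nearest to Mir29a, a microRNA gene (limb region on chromosome 6, 31011180 to 31012077), with limb folds of 8.29 to 12.1 in wt and 5.29 to 6.19 in 542, a log2 difference of -0.84 (SE 0.14, adjusted p = 0.0239, limma). Among the second it was the region near n-R5s43, with a log2 difference of 0.70 (SE 0.11, adjusted p = 0.0159, limma).

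The same rule was applied within DFL and within PFL, and its lists were compared with the FB members by overlap. Of the wt-only FB regions, 56 overlapped wt-only DFL regions, 2.92% of the FB list and 1.92% of the DFL list, and 18 overlapped 542-only DFL regions, 0.939% and 0.773%. Of all FB consensus regions, 1.44% overlapped wt-only and 1.26% overlapped 542-only DFL regions. Of the 542-only FB regions, 69 overlapped 542-only DFL regions (3.82% and 2.96%) and 17 wt-only DFL regions (0.942% and 0.584%). In PFL, 51 wt-only regions were shared (2.66% and 1.7%) and 32 542-only regions (1.77% and 1.31%), with 24 (1.25% and 0.984%) and 20 (1.11% and 0.667%) in the opposite lists. Of all FB consensus regions, 1.45% overlapped wt-only and 0.912% overlapped 542-only PFL regions.

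By position, the members were distal more often than the consensus regions as a whole, by count. Within 1 kb of a TSS lay 184 wt-only (9.6%) and 218 542-only regions (12.1%), against 26.9% of all consensus regions and 37.8% of those in all 4 lists. The median TSS distance was 16459 bp in wt-only and 11917 bp in 542-only regions, and 8689 bp over all. At the summit, 938 wt-only (48.9%) and 869 542-only regions (48.1%) were intronic, against 41.6% of all. Among wt-only and 542-only regions of lists of 20000, the share within 1 kb of a TSS was 16.7% and 17.7%. Over chromosomes, the wt-only share of consensus regions ran from 2.1% on chromosome 7 to 3.79% on chromosome 14, and the 542-only share from 2.23% on chromosome 18 to 3.31% on chromosome 19. Chromosome 2, which carries the insertion, had 2.74% and 2.92%.

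Members were spread over most of the genome, with few dense stretches. Of 1212 windows of 2 Mb with a consensus region, 906 held a wt-only and 888 a 542-only region. The densest for wt-only regions, with 7 each, were chromosome 12 at 32 to 34 Mb (of 73 regions, near Nampt, Pik3cg and Atxn7l1), chromosome 18 at 46 to 48 Mb (of 78, near Sema6a and Trim36) and chromosome 8 at 46 to 48 Mb (of 57, near Enpp6, Helt and Stox2). For 542-only regions they were chromosome 4 at 124 to 126 Mb with 10 of 92 (near Grik3, Rspo1 and Csf3r), chromosome 17 at 34 to 36 Mb with 8 of 115 (near the histocompatibility genes H2-Aa, H2-Ab1, H2-D1 and H2-Q7) and chromosome 1 at 174 to 176 Mb with 8 of 49 (near Fmn2 and Rgs7). In the last, 16.3% of regions were 542-only and 4.08% wt-only.

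Gene lists of forebrain development were read by nearest coding gene, at any distance, and their shares stand beside the 3.04% wt-only and 2.86% 542-only of all consensus regions. Of 394 consensus regions nearest to 29 pallial transcription factor genes, 8 were wt-only (2.03%) and 22 were 542-only (5.58%). The latter lay near 14 genes, with 4 near Nfib and 3 near Nr2f2, both transcription factors of the developing cortex. The 542-only region near Gm35325, 196478 bp from Nr2f2 as nearest coding gene (chromosome 7, 70158330 to 70159022), had 7.72 and 9.06 in 542 FB and 4.79 and 4.4 in wt FB, and that 194924 bp from Bcl11b, a factor of deep-layer projection neurons (chromosome 12, 107808024 to 107808743), had 6.71 and 9.25 against 4.55 and 3.55. On the wt-only side, a region 653621 bp from Bcl11a, its nearest coding gene, had 7.12 and 7.09 in wt FB and 2.28 in 542 FB replicate 1, and an intronic region of Nfia, a gliogenic factor, had 5.25 and 7.8 in wt FB and 2.28 and 2.77 in 542 FB.

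Regions nearest to 30 subpallial factor genes were wt-only in 8 and 542-only in 8 of 344 cases (2.33% each). An intronic region of Foxp2 (chromosome 6, 15242324 to 15243006), a striatal factor known for its part in speech, had 7.47 and 7.8 in wt FB and 3.55 and 4.46 in 542 FB. A region 477160 bp from Zfhx4, its nearest coding gene, had 6.71 and 5.39 in 542 FB and 3.4 in wt FB replicate 2. For the diencephalon and cortical hem, 7 of 250 were wt-only (2.8%), among them a region 65634 bp from Lhx5 with 6.42 and 7.66 in wt FB and 4.05 and 2.92 in 542 FB. In that list 11 were 542-only (4.4%), among them regions 157496 bp from Irx1, with 7.17 and 6.05 in 542 FB and 3.96 and 4.25 in wt FB, and 149332 bp from the signal gene Bmp4, with 6.08 and 5.23 in 542 FB and none in wt FB. Of 282 regions near progenitor and Notch genes, 4 were wt-only (1.42%) and 8 were 542-only (2.84%), the strongest of these 25463 bp from Sox9, a factor of neural stem cells, with 4.81 and 7.23 in 542 FB and 3.15 and 3.12 in wt FB, and 276708 bp from the Notch ligand gene Jag1, with 5.95 and 5.69 against 2.69 and 3.55.

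Genes of axon guidance and synapses, which span long stretches with many regions, held the most members of any list. Of 1452 regions near 42 such genes, 53 were wt-only (3.65%) and 55 were 542-only (3.79%). By nearest coding gene over the whole genome, Lrrc4c, which encodes a netrin-G ligand of synapses, and Schip1 had 6 wt-only regions each, of 51 and 27 consensus regions. The receptor phosphatase gene Ptprd had 5 of 79, and the adhesion receptor gene Adgrb3 and the repressor gene Bach2 had 4 each, of 26 and 40, as did others among the 9 genes with that count. Mean folds of these members ran from 3.65 to 7.41. Lrrc4c and Ptprd also had 2 542-only regions each, and Schip1, Adgrb3 and Bach2 had 0. Over all consensus regions 3.04% were wt-only. The strongest at Schip1 (chromosome 3, 67983238 to 67983798) had 8.17 and 6.1 in wt FB and 3.93 and 4.77 in 542 FB.

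On the 542-only side, Celf4, the gene of a neuronal RNA-binding protein, had 7 of 69, Lrp1b and the teneurin gene Tenm3 had 5 each, of 51 and 90, and Auts2 and Cntnap5b had 4 each, of 58 and 30, as did others among the 12 genes with that count. Ties were broken by name. Celf4, Lrp1b, Tenm3, Auts2 and Cntnap5b also had 2 wt-only regions each. Over all consensus regions 2.86% were 542-only. An intergenic 542-only region 431766 bp from Auts2 (chromosome 5, 132974757 to 132975319) had 7.6 and 6.62 in 542 FB and 4.79 and 4.68 in wt FB.

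No gene list had a shared region that passed the limma test. The regions in all 4 FB lists numbered 243 for the pallial list, 190 for the subpallial, 124 for diencephalon and hem, 178 for progenitor and Notch, 715 for axon and synapse and 30 for the HoxD locus, with 0 called in each list and 18 (7.41%), 17 (8.95%), 8 (6.45%), 22 (12.4%), 64 (8.95%) and 1 (3.33%) at an unadjusted p under 0.05 by limma, against 9.29% of all. Over all shared regions 12 (0.0316%) were called, so 0 in lists of this size does not set them apart. Medians of the log2 difference were 0.02 to 0.07, against 0.01 over all regions tested.

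Over all 37998 shared FB regions, limma called 8 higher (0.0211%) and 4 lower (0.0105%) in 542, and 3530 (9.29%) had an unadjusted p under 0.05. The median absolute log2 difference was 0.11, and 18 regions (0.0474%) differed by more than 1. The count depended on single libraries and on the measure. Without wt FB replicate 1 there were 17 higher and 7 lower, without wt FB replicate 2 there were 22 and 6, without 542 FB replicate 1 there were 5 and 18, and without 542 FB replicate 2 there were 8 and 26. Among the 16330 regions shared by lists of 20000, 0 passed by limma and 1395 had an unadjusted p under 0.05. Of the regions called in the main test, only that near Gm5784 was tested there, with an adjusted p of 0.0504 (limma).

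The 4 regions that were lower in 542 lay near genes of unlike function. Ccl28 encodes a chemokine of mucosal tissues, and an intronic region there (chromosome 13, 119631494 to 119632182) had folds of 23.1 and 21.8 in wt FB and 8.99 and 8.62 in 542 FB, a log2 difference of -1.31 (SE 0.10, adjusted p = 0.00155, limma). The promoter of Ppih, a cyclophilin of the splicing machinery (chromosome 4, 119320154 to 119321152), had 20.6 and 18.8 against 7.09 and 7.54, a difference of -1.39 (SE 0.12, adjusted p = 0.00247, limma). An intergenic region near D930016D06Rik (chromosome 5, 104571202 to 104572002) had 20.2 and 18.2 against 5.19 and 6.62, a difference of -1.67 (SE 0.15, adjusted p = 0.0031, limma). In all 3 the wt values were more than 2 times those of 542. The region 10342 bp from Klrb1c, which encodes the NK1.1 receptor of natural killer cells (chromosome 6, 128799392 to 128799950), was lower by less, with 4.68 and 4.79 against 2.51 and 2.65 (log2 difference -0.84, SE 0.11, adjusted p = 0.043, limma), and its adjusted p was 0.105 and 0.0757 by limma without 542 FB replicate 1 and without replicate 2.

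Of the 8 regions higher in 542, 6 lay within 1 kb of a TSS, as did 37.8% of all regions in all 4 lists. At the start of Dynlt1a, a dynein light chain gene (chromosome 17, 6317261 to 6317988), folds were 20 and 17.3 in 542 FB and 9.81 and 8.37 in wt FB (log2 difference 1.08, SE 0.12, adjusted p = 0.0172, limma). Trim12c, a tripartite-motif gene (chromosome 7, 104352787 to 104353849), had 16.4 and 15.3 against 7.71 and 6.67 (1.18, SE 0.14, adjusted p = 0.0177, limma). At Triobp, an actin-bundling gene (chromosome 15, 78947591 to 78948412), folds were 19.4 and 17.9 against 10.7 and 8.49 (1.00, SE 0.12, adjusted p = 0.0214, limma), and at Dnajc28, a J-domain gene (chromosome 16, 91618381 to 91619196), 14.2 and 16.3 against 8.17 and 7.23 (1.02, SE 0.13, adjusted p = 0.043, limma). The remaining ones were an intergenic region near Gm28665 (chromosome 7, 48131773 to 48132568) with 19.5 and 19.2 against 6.54 and 8.09 (1.45, SE 0.14, adjusted p = 0.00626, limma), and regions near Gm5784, Gm23072 and CR974462.6 with log2 differences of 0.68, 0.92 and 1.13. Without 542 FB replicate 1 the adjusted p by limma was 0.0503 for Trim12c, 0.0503 for Triobp, 0.0968 for Gm23072 and 0.0724 for CR974462.6, and without 542 FB replicate 2 it was 0.0981 for Dnajc28 and 0.0727 for CR974462.6.

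**Figure D5:**
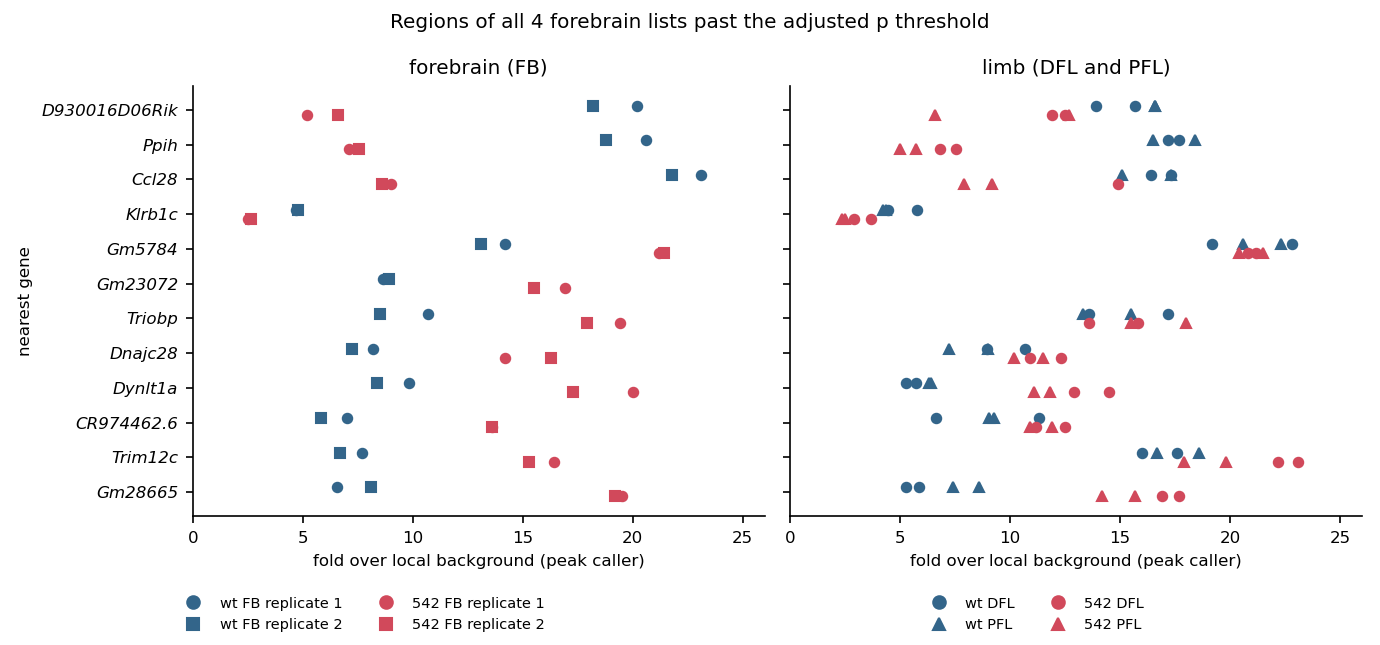
Fold over local background (horizontal axis) in forebrain (left) and limb (right) libraries for the 12 regions of all 4 forebrain lists that passed the limma test, named by nearest gene; blue is wt, red is 542, and symbols mark the replicate in forebrain and the tissue in limb. In forebrain the genotypes are apart in all 12, as the test that chose them favours. In limb those near Ppih, Gm28665, Dynlt1a and Klrb1c passed the limma test, as did 0.338% of all limb regions tested.

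In limb, 10 of the 12 regions could be tested, and all 10 had the same sign of the log2 difference as in FB. The share of same signs over all regions was not counted, so this number has no background. Those near Ccl28 and Gm23072 were not in all limb lists. Near Ccl28, 542 DFL replicate 2 had a fold of 14.9 against 16.4 and 17.3 in wt DFL. In PFL the folds there were 7.92 and 9.19 in 542 against 15.1 and 17.3 in wt. The limma test was passed by 4 of the 10, where the background is 0.338% of limb regions in either direction. Ppih had limb folds of 16.5 to 18.4 in wt and 4.99 to 7.55 in 542 (-1.43, SE 0.11, adjusted p = 3.98e-05, limma). Gm28665 had 5.25 to 8.59 in wt and 14.2 to 17.7 in 542 (1.33, SE 0.14, adjusted p = 0.000983, limma). For Dynlt1a the difference was 1.14 (SE 0.13, adjusted p = 0.00219, limma) and for Klrb1c it was -0.66 (SE 0.11, adjusted p = 0.0239, limma). The regions near Gm5784 and Triobp had limb differences of 0.05 (SE 0.06) and 0.13 (SE 0.09) and FB differences of 0.68 and 1.00.

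Whether the genotype difference itself differs between FB and limb was tested by an interaction in limma over 19001 regions that all 12 lists held. The interaction was called in 0 regions (0%), and 1347 (7.09%) had an unadjusted p under 0.05. Trim12c had the smallest adjusted p, 0.0532 (limma), where the difference was 1.18 in FB and 0.32 in limb. For Gm5784 and Triobp it was 0.177 and 0.248 (limma), so no difference between tissues passed the test there.

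Over 300 bases around the summit, the median GC content was 46% in wt-only, 47.7% in 542-only and 49.3% in all consensus regions, and the GC box GGGCGG was in 8.76%, 12.3% and 23.1%. The homeodomain core TAATTA was in 17.8% of wt-only and 21.2% of 542-only regions against 16.5% of all, and the SOX-type element ACAAAG in 26.3% and 33% against 26.1%. CAGATG, an E-box of proneural factors, was in 31.1% of wt-only, 25.6% of 542-only and 23.5% of all regions. Each motif was read on both strands, and a match is a run of letters and not a bound site. In the regions with no region of any rank in the other genotype, TAATTA was in 8.26% of the wt-only and 7.24% of the 542-only ones, and 1.65% and 6.58% were more than 50% soft-masked.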

How the data were processed

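Per the labels and the methods of the study, the authors trimmed reads with Cutadapt, mapped them with bowtie2 (wt on mm10, 542 on the mutant genome), kept concordant pairs of high mapping quality, removed duplicates with Picard, converted reads to BED with bedtools and called regions per library with MACS2 without a control. The deposited files give for each summit a fold ratio over the local background, the −log10 p-value and q-value and a score of 10 times the −log10 q. The lowest deposited −log10 q was 1.30. Tags per summit were derived from these columns for 95.3 to 98.9% of summits.

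Summits of one region were joined to the strongest. The 50000 highest by −log10 q, then fold, on chromosomes 1 to 19 formed each list, after positions of 542 on chromosome 2 beyond the insertion were lowered by 4218 bp, the shift of the files themselves. Regions of 542 that touch the insertion were set aside, and lists were then merged at an overlap of at least 1 bp. Genes and TSS come from GENCODE M21, sequence from GRCm38. Members, gene lists and markers were chosen with earlier results of these data known. Log2 folds of shared regions were centred per library and tested with limma 3.58.1 in R 4.3.3 (trend, Benjamini-Hochberg, threshold 0.05). On data simulated with normal noise from the fitted spread, the FB test recovered 28% of regions changed by 0.5 on the log2 scale and 98% of those changed by 1. It also called 14 unchanged regions there. The simulated data held 200 changed regions, and calls among these loosen the Benjamini-Hochberg cut-off. The 14 therefore cannot be set against the 12 calls in the data, and how many of those are false is not known. The real libraries may depart from that model. Replicates are pools of embryos, and p-values measure the spread between them. With so few libraries per group, limma draws that spread in part from the other regions, so it is not that of a single region alone. The named regions were, per direction, the 10 members of highest mean fold, the 5 genes with the most members (ties by name), up to 2 members per gene list, those at HoxD, those closest to the insertion, the 3 densest windows and up to 10 shared regions of smallest adjusted p. Regions with the same pattern in limb were named in addition, after their values were seen. Alternatives were other list lengths, rankings, windows, scalings, a replicate block and each library left out. A further wt DFL library was not used here.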

Additional observations from a re-analysis of the deposited data

Results flagged for a closer look

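In 4 members the limb libraries showed the reverse of the forebrain pattern, all limb libraries of one genotype holding the region and none of the other. The difference between tissues was not tested in these regions. The wt-only region near Fam196b (chromosome 11, 34355983 to 34356530) had a mean fold of 7.61 in wt FB and 3.8 and 2.46 in 542 FB, while in limb the 542 libraries had 4.39 to 6.37 and 3 of the 4 wt libraries had lower-ranked regions of 3.54 to 4.37. The 542-only region near Sos2 (chromosome 12, 69688351 to 69688768) had a mean fold of 6.28 in 542 FB and 4.79 and 3.69 in wt FB, and 5.13 to 6.76 in wt limb. The 542-only region at the start of Caln1 (chromosome 5, 130448630 to 130449600) had 5.62 in 542 FB and 3.85 and 4.68 in wt FB, and 5.1 to 6.35 in wt limb against 3.4 to 4.61 in 542 limb. The region in an intron of Ank3 (chromosome 10, 69834737 to 69835040) had 5.02 in 542 FB and 4.2 and 3.83 in wt FB, and 5.47 to 7.64 in wt limb. The shares of 0.0522% of wt-only and 0.166% of 542-only regions are close to the 0.0777% and 0.151% of all FB consensus regions with these limb patterns.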

How the results depend on the processing

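The wt-only and 542-only counts stayed within 1.5 times of 1917 and 1805 when ranked by fold, in 500 bp windows, with the X chromosome and with the 50000 taken over all scaffolds, but were 586 and 617 with lists of 20000 and 5855 and 2993 with all deposited regions. Which regions are members changed more: 5 and 7 of the members were also found with lists of 20000, and 1308 (68.2%) and 1243 (68.9%) when ranked by fold. With a library left out the counts were 3591 to 4945 and 3124 to 4725, since 1 list then stands for a genotype. The share within 1 kb of a TSS, 9.6% and 12.1%, was 16.7% and 17.7% with lists of 20000 and 6.64% and 8.75% with all regions. Members with the same pattern in limb, 16 and 17, were 10 and 4 with lists of 20000.

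For the shared FB regions, calls higher and lower in 542 were 1 and 3 without centring, 5 and 4 with quantile normalization and 18 and 14 with all regions. With lists of 20000, which shared only the Gm5784 region of the main calls, the calls were 0 and 0. With −log10 q as the measure the calls were 103 and 63. They were 5 to 22 and 6 to 26 with 1 library left out. The deviations of same-numbered FB libraries correlated at -0.03, which with 2 pairs cannot show whether the same number marks a shared batch. A replicate block gave 14 and 12 calls. In limb, 39 and 49 became 32 and 29 with a replicate block, 13 and 74 without centring, 7 and 8 with lists of 20000, 62 and 80 without replicate 1, and 2 and 2 without replicate 2. The interaction gave 0 calls with a replicate block, without centring and with lists of 20000. Without replicate 1 or 2 the 6 group means leave no residual degrees of freedom, so a form with 1 genotype effect common to both limb tissues was fitted, chosen after seeing the data. It gave 0 calls over all 12 libraries, 1 with the lower difference in FB without replicate 1 (Gm10222, adjusted p = 0.0079, against 0.595 in the full test, limma) and 1 with the higher one without replicate 2. Among the 12 regions called in FB, no log2 difference changed sign in any alternative that tested it, and the call was lost in 22 of 119 such fits, with adjusted p up to 0.265 (limma). The causes of these shifts were not tested. Depth limits what can be said of weak members: the wt-only region near Gm13655, with folds of 6.07 and 5.44, rests on 51 and 41 tags.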
